A study of Mus musculus with 12 samples.

Results

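The genes described are the 3 nitric oxide synthases *Nos1*, *Nos2* and *Nos3*, the genes of arginine metabolism *Odc1*, *Ass1* and *Slc7a2*, and the cofactor gene *Gch1*. They were selected by symbol, 7 of the 35976 genes listed in the count files, because *Nos2* was high with traction in wild-type scars and not in scars that lack *Tem1*. The levels of *Nos2* in all 4 groups therefore chose the set, and they are given below as a description without a test. RNA was sequenced from scars of male mice, with 3 libraries in each of 4 groups. Wild-type mice (Tem1WT/WT) and mice without the gene (Tem1lacZ/lacZ) each had a sham and a traction group. In Tem1lacZ/lacZ mice the lacZ reporter takes the place of the only exon of *Tem1*, which the files list as *Cd248*, in every cell of the body, so that loss of the gene is not limited to a cell type. This line had been backcrossed to C57BL/6J for 10 generations, and the mice were 8 to 12 weeks old. All mice received a 1.5 cm split wound on the back, and a plastic device was placed on it after 6 days. In the traction groups the device was lengthened by 1 mm a day to a total of 8 mm, whereas in the sham groups it was left in place without elongation.

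A nitric oxide synthase turns arginine into nitric oxide and citrulline. Arginine is also a source of ornithine, from which polyamines and proline are made. In skin wounds *Nos2* is known as the inducible synthase of activated macrophages, neutrophils and keratinocytes, *Nos3* as the synthase of the endothelium and *Nos1* as that of neurons and skeletal muscle. *Ass1* recycles citrulline towards arginine, *Slc7a2* carries arginine into the cell, *Odc1* makes the first polyamine from ornithine, and *Gch1* starts the synthesis of tetrahydrobiopterin, the cofactor that every nitric oxide synthase needs.

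Since the 3 synthases are paralogs, their coding sequences were compared for stretches that a read could not assign. The longest run of identical coding bases was 20 for *Nos2* and *Nos1*, 22 for *Nos2* and *Nos3* and 23 for *Nos1* and *Nos3*, against a read length of 150 bases. The run of *Nos2* against *Nos3* is shown in capitals with 15 bases on each side, as the closest resemblance of the inducible and the endothelial synthase (GENCODE vM21, GRCm38, coding strand).
Nos2, exon 9, chr11:78937816-78937867, plus strand: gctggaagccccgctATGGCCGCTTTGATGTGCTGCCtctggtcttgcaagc
Nos3, exon 7, chr5:24369814-24369865, plus strand: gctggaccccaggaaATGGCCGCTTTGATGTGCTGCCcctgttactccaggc

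Every window of 150 bases in the longest coding transcript was also searched for, on both strands, in the transcripts of all other genes. The strand of a match was not recorded, so a match can come from genes that overlap on opposite strands. No window of *Nos2*, *Slc7a2* or *Gch1* was found in another gene. The share found elsewhere was 0.630% for *Nos1*, 3.55% for *Odc1*, 4.24% for *Nos3* and 29.3% for *Ass1*. The windows of *Nos3* were shared with *Atg9b* and Gm15587 and those of *Ass1* with Gm5424, so the counts of *Ass1* in particular depend on how shared reads were counted.

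The libraries held 41536788 to 64644293 counts, with a median of 48173798, and each of the 7 genes passed the filter on low counts that left 18853 genes. Levels are given as CPM, counts of a gene relative to its library's total, scaled by TMM, a factor that equalises the bulk of the genes between libraries. *Cd248* itself was at 92.4 to 337 CPM in the 6 Tem1WT/WT libraries and at 0 to 0.248 CPM in the 6 Tem1lacZ/lacZ libraries, as labelled. Replicate 1 of Tem1WT/WT mice with traction stood apart from the other libraries, and results that rest on it are given with and without it. A gene was called changed where its p from edgeR's quasi-likelihood test was below 0.05 after adjustment for the 18853 genes by the method of Benjamini and Hochberg.

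Among the nitric oxide synthases, *Nos2* (Entrez 18126, GRCm38 chr11:78920787-78960226) was at 391, 86.8 and 66.8 CPM in the Tem1WT/WT traction libraries. In the Tem1WT/WT sham libraries it was at 1.74, 1.13 and 3.11 CPM. Tem1lacZ/lacZ scars had 1.40, 1.16 and 1.09 CPM with sham treatment and 1.85, 3.64 and 1.51 CPM with traction. The lowest Tem1WT/WT traction library thus lay far above each of the 9 others. Both Tem1lacZ/lacZ groups overlapped the Tem1WT/WT sham libraries, although each Tem1lacZ/lacZ traction library was slightly above each Tem1lacZ/lacZ sham library. The group means were 182 ± 182 CPM with traction and 1.99 ± 1.01 CPM with sham treatment in Tem1WT/WT mice, and 2.33 ± 1.15 and 1.22 ± 0.164 CPM in Tem1lacZ/lacZ mice (SD, n = 3). The fitted log2 fold change of traction against sham was 6.51 (SE 0.78) in Tem1WT/WT mice and 0.94 (SE 0.67) in Tem1lacZ/lacZ mice, and that of Tem1lacZ/lacZ against Tem1WT/WT with traction was -6.28 (SE 0.77). The first and the last of these comparisons share the Tem1WT/WT traction libraries. Without replicate 1 of that group the first and the last of these values were 5.25 and -5.01. In sham scars the log2 fold change of Tem1lacZ/lacZ against Tem1WT/WT was -0.71 (SE 0.67). *Nos2* had 49 to 191 reads in the 9 libraries other than Tem1WT/WT with traction.

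**Figure D1:**
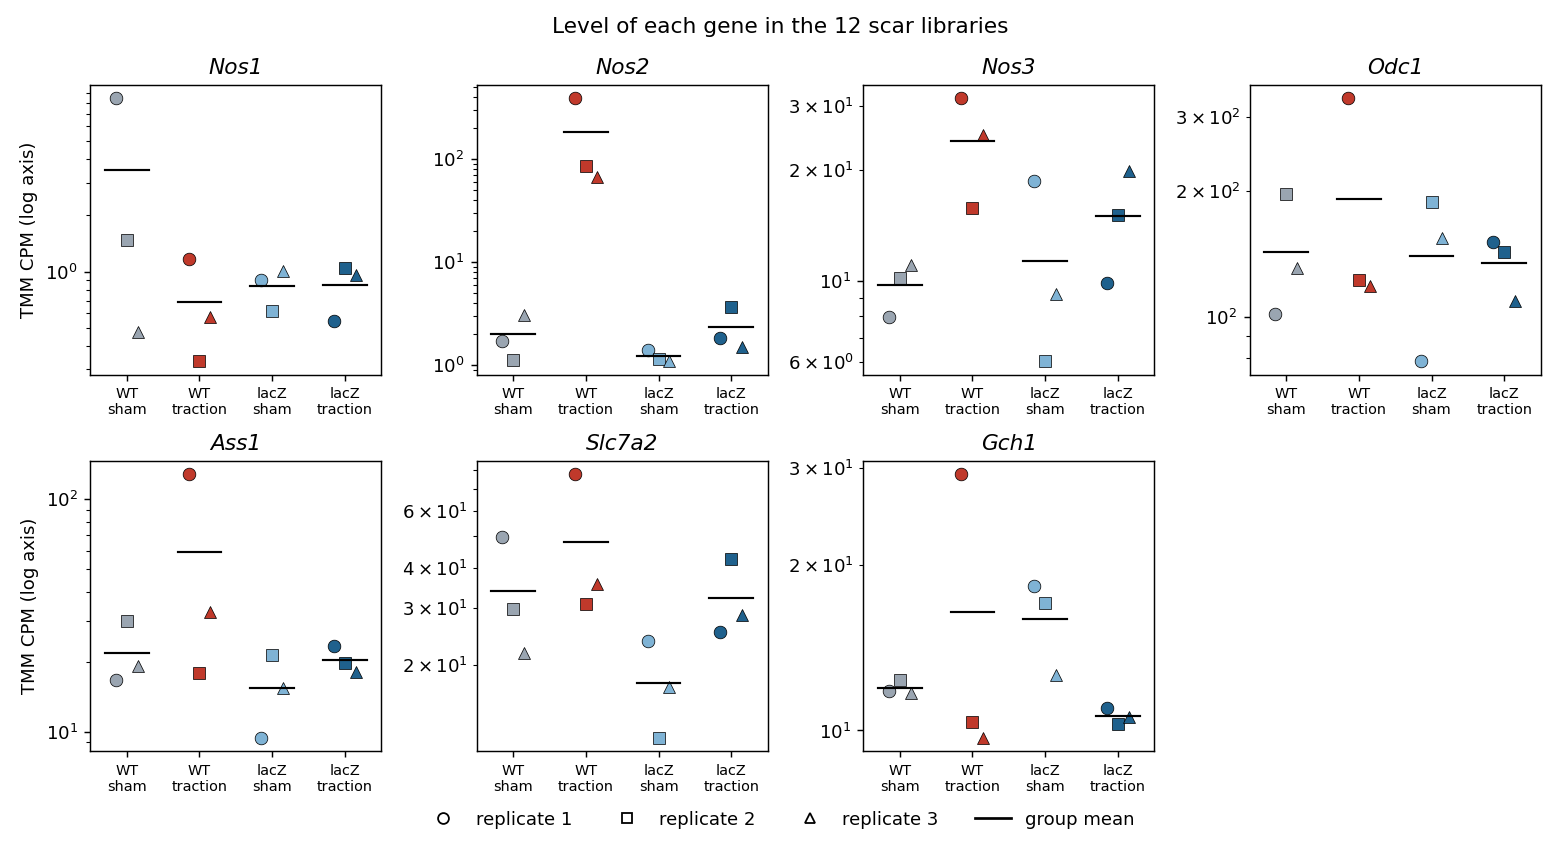
Level of each of the 7 genes in the 12 libraries, in TMM-scaled CPM on a log axis, with replicates 1, 2 and 3 as circles, squares and triangles and the group mean as a line. *Nos2* in Tem1WT/WT traction libraries lies between 66.8 and 391 CPM and at 3.64 CPM or less in the others, and replicate 1 of that group is the highest library for 6 of the 7 genes.

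*Nos3* (Entrez 18127, chr5:24364816-24384474), the endothelial synthase, was at 31.5, 15.8 and 24.9 CPM with traction and at 7.99, 10.2 and 11.1 CPM with sham treatment in Tem1WT/WT mice, and these libraries did not overlap. It was at 18.8, 6.03 and 9.20 CPM in Tem1lacZ/lacZ sham scars and at 9.83, 15.1 and 19.97 CPM in Tem1lacZ/lacZ scars with traction, where the groups overlapped. The log2 fold change in Tem1WT/WT mice was 1.30 (SE 0.41), which missed the threshold (edgeR adjusted p = 0.0652) and was 1.04 (adjusted p = 0.162) without replicate 1 of the traction group. It passed in 3 of 21 alternative settings, DESeq2 among them (adjusted p = 0.0160). Each traction library was above each sham library in Tem1WT/WT mice for *Nos3* alone of the 6 genes other than *Nos2*, as for 17.7% of all genes tested. The difference in Tem1lacZ/lacZ mice was 0.40 (SE 0.41, edgeR adjusted p = 0.793). It was 0.13 without Tem1lacZ/lacZ sham replicate 2 and 1.02 without Tem1lacZ/lacZ sham replicate 1. Of 10 endothelial markers, 7 were called higher with traction in Tem1WT/WT mice (5.61% of all genes). Without replicate 1 of the traction group 4 were called higher, where edgeR called 360 genes in either direction, against 1725 with all libraries. The summed levels of the endothelial markers were 936 to 1050 CPM against 366 to 517 CPM in sham scars of Tem1WT/WT mice. Their part in the level of *Nos3* was not tested. In bulk tissue, a larger share of a cell type and more RNA of a gene in each of its cells cannot be told apart. *Atg9b*, which shares sequence with *Nos3*, was at 38.0 to 47.2 CPM in sham scars and 12.1 to 22.5 CPM with traction in Tem1WT/WT mice, and at 54.4 to 74.8 CPM and 28.7 to 49.6 CPM in Tem1lacZ/lacZ mice.

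*Nos1* (Entrez 18125, chr5:117866839-117958840), the neuronal synthase, was near the lower end of what was counted, with 15 to 55 reads in 10 of the libraries. Its highest level, 8.49 CPM from 391 reads, was in replicate 1 of the Tem1WT/WT sham group, and the other replicates of this group had 1.48 and 0.475 CPM. The remaining 9 libraries lay between 0.331 and 1.17 CPM. Its log2 fold change with traction in Tem1WT/WT mice was -2.33 (SE 0.87, edgeR adjusted p = 0.0990) and came to -0.52 without that sham library. The same library had the highest summed level of 10 skeletal muscle markers, 14865 CPM, against 371 to 3919 CPM in the 11 others, and the part of muscle in the level of *Nos1* was not tested.

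**Figure D2:**
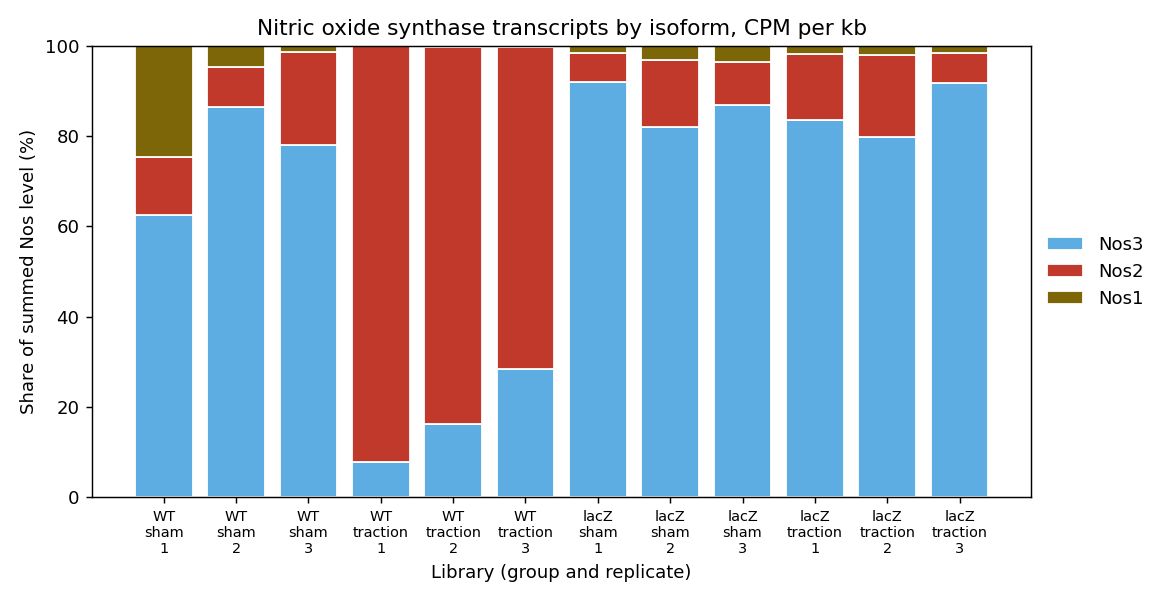
Share of *Nos1*, *Nos2* and *Nos3* in their summed level in each of the 12 libraries, with CPM divided by the exon length of each gene in kb. *Nos2* makes up 71.3% to 92.0% in the Tem1WT/WT traction libraries and 6.45% to 20.6% in the other libraries.

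To compare the synthases with each other, levels were divided by exon length (4.412 kb for *Nos2*, 4.132 kb for *Nos3* and 11.151 kb for *Nos1*). On this scale *Nos3* was the main synthase transcript in the 9 libraries other than Tem1WT/WT with traction, with 62.6% to 91.9% of the sum. In Tem1WT/WT scars with traction *Nos2* made up 92.0%, 83.6% and 71.3% and *Nos3* 7.90% to 28.4%. The summed level of the synthases was 96.4, 23.5 and 21.2 CPM per kb in these libraries and 1.78 to 5.26 CPM per kb in the others. *Nos2* and *Nos3* thus changed places in this group, which follows from the levels of *Nos2* that chose the genes.

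With traction against sham in Tem1WT/WT mice, edgeR called 0 of the 6 genes other than *Nos2*, where 9.15% of all genes tested were called. An unadjusted p under 0.05 was found for 3 of the 6, against 31.4% of all genes, namely *Nos1*, *Nos3* and *Ass1*. DESeq2 called 2 of them, *Nos3* and *Nos1* (adjusted p = 0.0265), against 21.5% of all genes.

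*Odc1* (Entrez 18263, chr12:17544808-17551502), the first enzyme of polyamine synthesis, was at 332, 123 and 119 CPM with traction and at 102, 196 and 131 CPM with sham treatment in Tem1WT/WT mice. Tem1lacZ/lacZ scars had 78.5, 188 and 154 CPM with sham treatment and 151, 143 and 109 CPM with traction. Sham and traction libraries overlapped in both genotypes, with log2 fold changes of 0.42 (SE 0.43, edgeR adjusted p = 0.542) and -0.06 (SE 0.43, edgeR adjusted p = 0.977). Without replicate 1 of Tem1WT/WT mice with traction, the former was -0.26.

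Of the genes that supply arginine, *Ass1* (Entrez 11898, chr2:31470270-31520670) was at 128, 18.0 and 32.7 CPM with traction and at 16.7, 29.9 and 19.2 CPM with sham treatment in Tem1WT/WT mice. Its level was 9.42, 21.3 and 15.4 CPM in Tem1lacZ/lacZ sham scars and 23.5, 19.8 and 18.1 CPM in Tem1lacZ/lacZ scars with traction. It was high in 1 library, and the groups overlapped. The log2 fold change with traction in Tem1WT/WT mice was 1.44 (SE 0.59, edgeR adjusted p = 0.128), and 0.18 (adjusted p = 0.768) without replicate 1. Without replicate 2 of the traction group it was 1.88 and was called (adjusted p = 0.0369). Gm5424, which shares 150-base windows with *Ass1*, had its highest level in the same library, 39.7 CPM against 3.17 to 12.5 CPM elsewhere, and reads of these genes may not have been told apart.

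*Slc7a2* (Entrez 11988, chr8:40862341-40922070), which encodes a cationic amino acid transporter, was at 49.8, 29.8 and 21.9 CPM in Tem1WT/WT sham scars and at 77.7, 31.0 and 35.6 CPM in Tem1WT/WT scars with traction, and these groups overlapped. In Tem1lacZ/lacZ mice it was at 23.7, 11.9 and 17.1 CPM with sham treatment and at 25.4, 42.7 and 28.6 CPM with traction, without overlap. Of the 6 genes other than *Nos2*, it was the one that was higher in each Tem1lacZ/lacZ traction library than in each sham library, a pattern of 6.77% of all genes tested. The log2 fold change was 0.87 (SE 0.41, edgeR adjusted p = 0.622) in Tem1lacZ/lacZ mice and 0.51 (SE 0.41, edgeR adjusted p = 0.425) in Tem1WT/WT mice.

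*Gch1* (Entrez 14528, chr14:47153895-47189413), which encodes the rate-limiting enzyme of tetrahydrobiopterin synthesis, was at 11.8, 12.4 and 11.7 CPM in Tem1WT/WT sham scars and at 11.0, 10.3 and 10.6 CPM in Tem1lacZ/lacZ scars with traction. Tem1lacZ/lacZ sham scars had 18.3, 17.0 and 12.6 CPM, and Tem1WT/WT scars with traction 29.2, 10.4 and 9.70 CPM. In Tem1lacZ/lacZ mice each traction library was below each sham library (log2 fold change -0.59, SE 0.36, edgeR adjusted p = 0.659), a pattern of 6.16% of all genes. With traction in Tem1WT/WT mice the value was 0.46 (SE 0.36, edgeR adjusted p = 0.403), and -0.27 without replicate 1.

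Replicate 1 of Tem1WT/WT mice with traction was the highest of the 12 libraries for 6 of the 7 genes, all but *Nos1*, where 16.9% of all genes tested had their highest level in it. It was the highest of its group for each of the 7 genes, against 34.5% of all genes. Its level over the mean of replicates 2 and 3 was 5.09 for *Nos2*, 5.04 for *Ass1*, 2.91 for *Gch1*, 2.75 for *Odc1*, 2.57 for *Nos1*, 2.33 for *Slc7a2* and 1.55 for *Nos3*, with a median of 0.956 over all genes. Traction against sham in Tem1WT/WT mice therefore read differently with and without it. With all libraries 5 of the 6 genes other than *Nos2* were higher and 1 was lower, with a median log2 fold change of 0.48 (all genes -0.01). Without replicate 1, 2 were higher and 4 were lower, with a median of -0.15 (all genes -0.05). Thus *Nos2* and *Nos3* still had values of 5.25 and 1.04 and *Nos1* one of -2.94 (edgeR adjusted p = 0.106), whereas the values of *Ass1*, *Slc7a2*, *Odc1* and *Gch1* lay between -0.27 and 0.18 without this library.

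**Figure D3:**
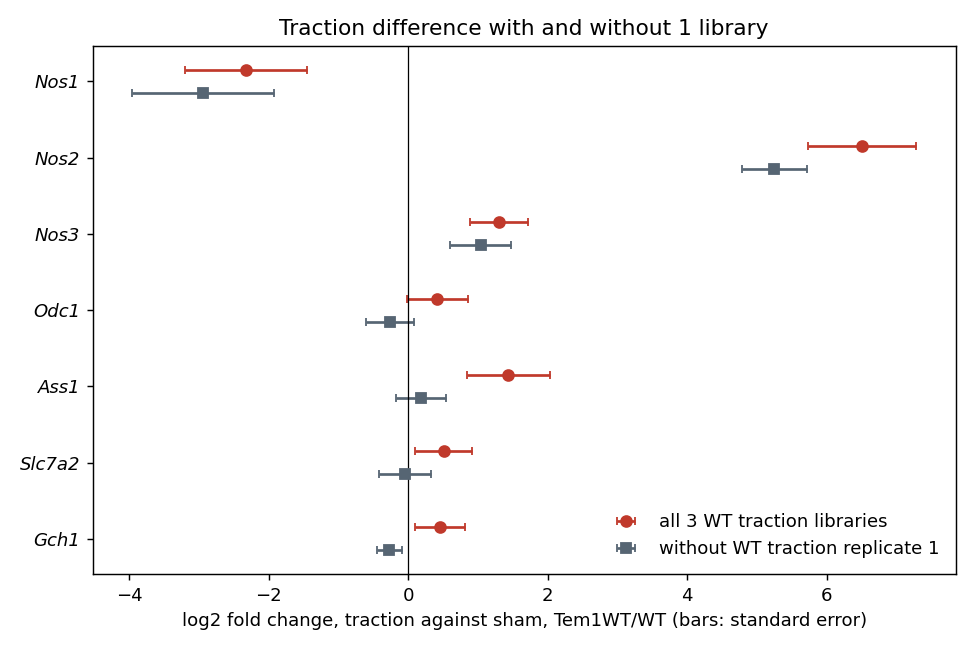
Log2 fold change of traction against sham in Tem1WT/WT mice for the 7 genes, with standard errors, from all libraries (red circles) and without replicate 1 of the traction group (grey squares). *Nos2* moves from 6.51 to 5.25 and *Nos3* from 1.30 to 1.04, whereas *Ass1* moves from 1.44 to 0.18.

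The same library stood out in markers of neutrophils. The summed level of 12 neutrophil markers was 6811, 610 and 288 CPM in Tem1WT/WT scars with traction, 63.1 to 98.3 CPM in Tem1WT/WT sham scars, 172 to 191 CPM in Tem1lacZ/lacZ sham scars and 250 to 530 CPM in Tem1lacZ/lacZ scars with traction. *Ly6g*, which defines mouse neutrophils, had no count in 7 of the 12 libraries. Of 9 neutrophil markers tested, 4 were called higher with traction in Tem1WT/WT mice (5.61% of all genes), and 1 without replicate 1. Over all genes, edgeR called 360 in either direction without replicate 1, against 1725 with all libraries. The summed level of 12 monocyte and macrophage markers differed less, with 4291 to 5690 CPM in Tem1WT/WT scars with traction and 2720 to 4571 CPM in Tem1WT/WT sham scars, and 1 of them was called higher, and 0 without replicate 1. Of 8 keratinocyte markers 0 were called higher and 1 lower with traction in Tem1WT/WT mice (5.61% and 3.54% of all genes). Of 8 fibroblast markers 1 was called higher, and 0 without replicate 1, and of 5 red cell markers 4 were with and without it. The fibroblast markers summed to 44144 to 110893 CPM with traction and 26134 to 41437 CPM with sham treatment in Tem1WT/WT mice. The part of these cells in the levels of *Nos2* and the other genes was not tested.

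**Figure D4:**
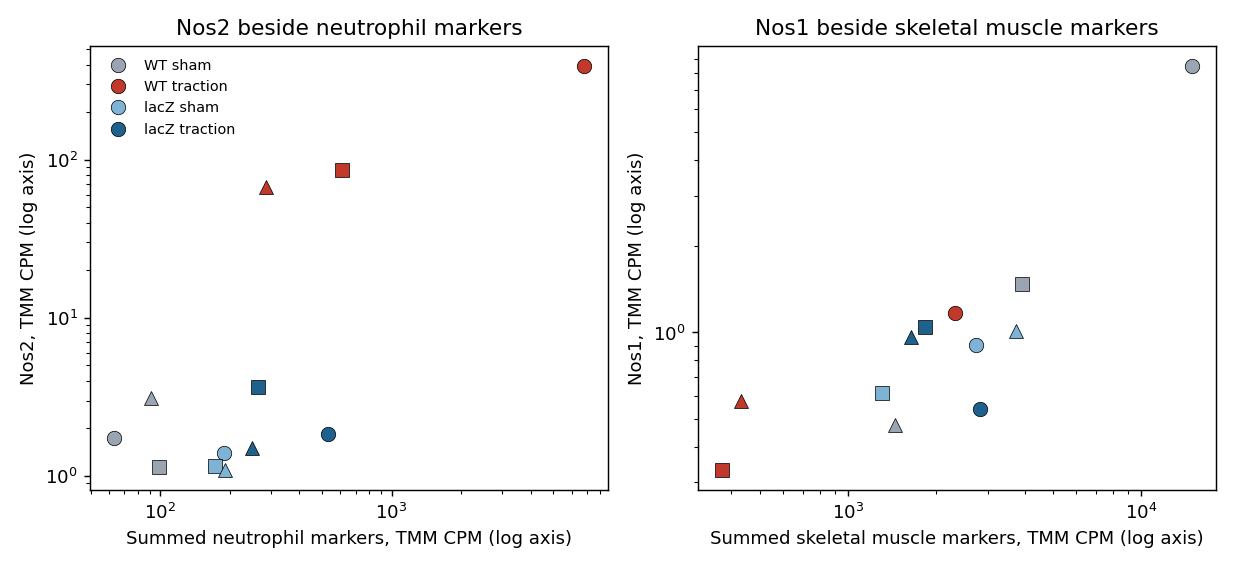
Left, *Nos2* against the summed level of 12 neutrophil markers, and right, *Nos1* against the summed level of 10 skeletal muscle markers, in the 12 libraries (CPM, log axes, colour for group, circles, squares and triangles for replicates 1, 2 and 3). Replicate 1 of the Tem1WT/WT traction group is highest in both *Nos2* and the neutrophil sum. Replicate 3 of that group has a neutrophil sum of 288 CPM with *Nos2* at 66.8 CPM. The Tem1lacZ/lacZ traction libraries have neutrophil sums of 250 to 530 CPM with *Nos2* at 1.51 to 3.64 CPM. *Nos1* is highest, at 8.49 CPM, where the muscle sum is highest.

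Comparing the genotypes, edgeR called 0 of the 6 genes other than *Nos2* in scars with traction, where it called 0.106% of all genes. In this comparison 5 of the 6 were lower in Tem1lacZ/lacZ mice, at a median of -0.60 on the log2 scale (all genes 0.01), and 1 had an unadjusted p under 0.05 (26.1% of all genes), *Ass1*. None was without overlap, where 26.6% of all genes were. DESeq2 called 0 of the 6, against 12.2% of all genes. *Ass1* differed by -1.54 (SE 0.60, edgeR adjusted p = 0.145) and was called without Tem1WT/WT traction replicate 2 (adjusted p = 0.0464), but its difference was -0.28 without replicate 1. Without replicate 1, 3 of the 6 genes were higher and 3 lower, at a median of 0.050 (all genes 0.07).

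In sham scars, edgeR called 0 of the 6 genes other than *Nos2*, against 0.0106% of all genes, and DESeq2 called 0, against 0.143%. An unadjusted p under 0.05 was found for *Nos1* and *Slc7a2* (11.7% of all genes), both lower in Tem1lacZ/lacZ mice. For *Nos1* the log2 fold change was -2.03 (SE 0.86, edgeR adjusted p = 0.418), and -0.22 without the sham library that was high in muscle markers. For *Slc7a2* it was -0.94 (SE 0.42, edgeR adjusted p = 0.424). *Gch1* was higher in each Tem1lacZ/lacZ sham library than in each Tem1WT/WT sham library, as were 13.0% of all genes, with a log2 fold change of 0.42 (SE 0.36, edgeR adjusted p = 0.643).

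With traction against sham in Tem1lacZ/lacZ mice, edgeR called 0 of the 6 genes other than *Nos2*, as it called 0.0% of all genes, and DESeq2 called 0, against 0.122%. Their median log2 fold change was 0.21 (all genes -0.01), and 0 had an unadjusted p under 0.05, against 8.12% of all genes. Without Tem1lacZ/lacZ traction replicate 1, edgeR still called 0 of the 6, against 0.376% of all genes. When the 2 traction effects were tested against each other, edgeR and DESeq2 called 0 of the 6, edgeR called 0.0% and DESeq2 0.366% of all genes, and 0 had an unadjusted p under 0.05 (8.91% of all genes). Of the 6 values, 4 were negative, with a median of -0.69 (all genes 0.00), and without replicate 1 the median was 0.25. For *Nos2* the value was -5.57 with all libraries and -4.28 without replicate 1, as a description.

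The wider pathway was read from 70 genes in 7 lists, of which 67 were tested. With traction in Tem1WT/WT mice 11 were called higher and 2 lower (all genes 5.61% and 3.54%), with a median log2 fold change of 0.23. Around arginine itself, 1 of 9 genes of arginine transport and the urea cycle was called (9.15% of all genes), *Slc7a7*, the light chain of a transporter that exchanges basic for neutral amino acids. *Slc7a7* was at 15.6, 16.9 and 20.6 CPM with traction and 6.92, 6.63 and 8.89 CPM with sham treatment in Tem1WT/WT mice (log2 fold change 1.24, SE 0.23, edgeR adjusted p = 0.0264). In Tem1lacZ/lacZ mice its level overlapped, at 8.60, 14.3 and 10.7 CPM against 9.04, 6.71 and 9.43 CPM (0.42, SE 0.23, adjusted p = 0.640). Of 7 genes between ornithine and proline 1 was called higher and 1 lower (5.61% and 3.54% of all genes). *Aldh18a1*, which starts proline synthesis, rose by 0.81 (SE 0.20, adjusted p = 0.0355) and *Prodh*, which starts its breakdown, fell by 1.02 (SE 0.23, adjusted p = 0.0329). In Tem1lacZ/lacZ mice *Aldh18a1* was at 0.36 (adjusted p = 0.638), with each traction library above each sham library (6.77% of all genes). *Prodh* was at -0.15 there (adjusted p = 0.870).

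Among 12 polyamine genes 3 rose and 1 fell with traction in Tem1WT/WT mice, where 5.61% of all genes were called higher and 3.54% lower. *Azin2*, an antizyme inhibitor that protects the enzyme encoded by *Odc1* from degradation, was at 37.2, 31.4 and 36.3 CPM with traction and 13.0, 15.1 and 18.4 CPM with sham treatment in Tem1WT/WT mice, without overlap (log2 fold change 1.18, SE 0.18, edgeR adjusted p = 0.0239). It was also without overlap in Tem1lacZ/lacZ mice, at 18.7, 27.8 and 20.2 CPM with traction and 17.9, 15.9 and 15.2 CPM with sham treatment, but was not called there (0.44, SE 0.18, adjusted p = 0.598). Each traction library was above each sham library for 17.7% of all genes in Tem1WT/WT and 6.77% in Tem1lacZ/lacZ mice. *Srm*, the spermidine synthase, rose by 0.88 (SE 0.20, adjusted p = 0.0333), and *Sms*, the spermine synthase, fell by 0.66 (SE 0.18, adjusted p = 0.0486). In Tem1lacZ/lacZ mice *Srm* was at 0.16 (adjusted p = 0.841), with each traction library above each sham library. *Sms* was at -0.09 there (adjusted p = 0.905). The third gene called higher was *Oaz2*, an antizyme, at 0.82 (SE 0.16, adjusted p = 0.0288), which had a value of 0.44 in Tem1lacZ/lacZ mice, also without overlap and not called (adjusted p = 0.598). *Odc1* itself was not called, as given above.

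Of 12 regulators of the synthases 1 was called with traction in Tem1WT/WT mice (9.15% of all genes). This was *Ddah1*, which degrades methylated arginines that inhibit nitric oxide synthases. It was at 137, 173 and 199 CPM with traction and 20.2, 44.3 and 63.2 CPM with sham treatment in Tem1WT/WT mice, and at 100, 159 and 82.3 CPM with traction in Tem1lacZ/lacZ mice against 76.0, 66.4 and 57.1 CPM with sham treatment. Neither pair of groups overlapped (17.7% and 6.77% of all genes), and the log2 fold change was 1.99 (SE 0.38, edgeR adjusted p = 0.0277) in Tem1WT/WT and 0.77 (SE 0.36, adjusted p = 0.622) in Tem1lacZ/lacZ mice. None of 7 tetrahydrobiopterin genes was called by edgeR (9.15% of all genes), and 0 had an unadjusted p under 0.05 (31.4% of all genes). The smallest p were those of *Spr* (0.26, adjusted p = 0.291) and *Qdpr* (-0.18, adjusted p = 0.367). None of 7 genes of the response to nitric oxide was called (9.15% of all genes), with 2 at an unadjusted p under 0.05 (31.4% of all genes). These were *Pde5a*, the cyclic GMP phosphodiesterase (0.84, adjusted p = 0.0529), and *Prkg2*, a cyclic GMP-dependent kinase (-1.34, adjusted p = 0.0860). Without Tem1WT/WT traction replicate 1 *Pde5a* was called (1.04, adjusted p = 0.0461). *Prkg2* had a value of -1.35 in Tem1lacZ/lacZ mice, with each traction library below each sham library (6.16% of all genes), and was not called (adjusted p = 0.598).

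Inducers of *Nos2* were the list with the most calls. Of 13 cytokines, receptors and factors known to induce *Nos2*, 5 were called (9.15% of all genes) and 13 were higher with traction in Tem1WT/WT mice, and their median was 1.27 on the log2 scale. Without replicate 1 of the traction group 0 were called and 12 were higher, at a median of 0.43 (all genes -0.05). That fit called 360 of all genes, against 1725 with all libraries. The list of inducers holds *Tnf*, *Hif1a* and *Jak2*, which the study itself picked from these libraries, so its direction is not independent evidence. *Il1b*, the cytokine interleukin 1 beta, was at 3698, 86.0 and 84.9 CPM with traction and 5.90, 6.53 and 32.6 CPM with sham treatment in Tem1WT/WT mice (6.42, SE 1.70, edgeR adjusted p = 0.0432), and at 2.49 (adjusted p = 0.134) without replicate 1. In Tem1lacZ/lacZ mice it was at 21.9, 12.1 and 132.7 CPM with traction and 10.4, 18.2 and 9.73 CPM with sham treatment (2.12, SE 1.41, adjusted p = 0.683), and the highest of these lay above Tem1WT/WT traction replicates 2 and 3. *Hif1a*, the hypoxia-inducible factor, rose by 1.51 (SE 0.34, adjusted p = 0.0329) and *Il1r1*, the interleukin 1 receptor, by 1.47 (SE 0.34, adjusted p = 0.0339).

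**Figure D5:**
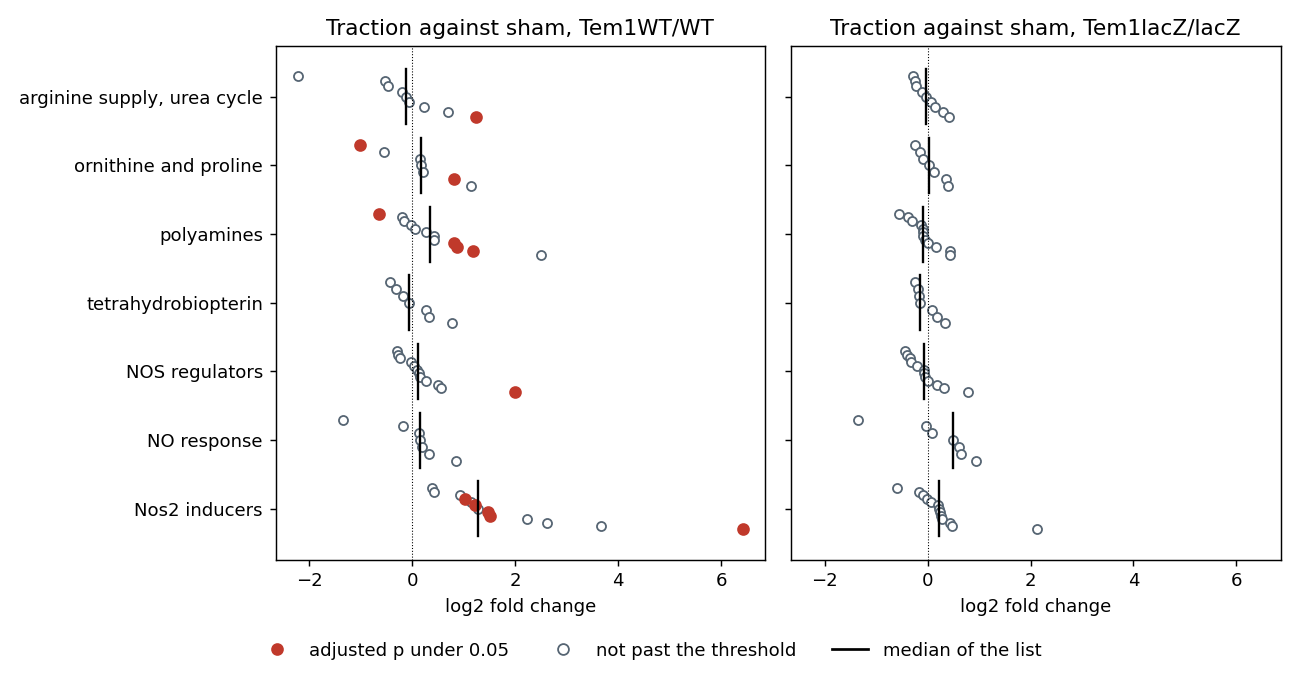
Log2 fold change of traction against sham for the 67 pathway genes tested, by list, in Tem1WT/WT (left) and Tem1lacZ/lacZ mice (right), with filled red points for genes called by edgeR and a line at the median of each list. In Tem1WT/WT mice 13 genes are called and the median of the *Nos2* inducers is 1.27, and in Tem1lacZ/lacZ mice 0 are called and it is 0.22. Without Tem1WT/WT traction replicate 1 the former median is 0.43.

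The 13 calls depended on single libraries, as did the calls over all genes. There were 0 without Tem1WT/WT sham replicate 1 or 2 and 0 with only the 6 libraries compared, settings in which edgeR called 0.0% of all genes. Without Tem1WT/WT sham replicate 3 there were 5 (4.22% of all genes) and without Tem1lacZ/lacZ sham replicate 3 there were 2 (0.873%). Leaving out Tem1WT/WT traction replicate 3 gave 8 (3.62%), whereas leaving out Tem1WT/WT traction replicate 2 gave 18, with 12 of them among the 13. Leaving out Tem1WT/WT traction replicate 1 gave 4 (1.86%), of which *Azin2*, *Ddah1* and *Slc7a7* were among the 13 and *Pde5a* was not. DESeq2 called 21, 12 of them shared, against 21.5% of all genes. In Tem1lacZ/lacZ mice edgeR called 0 of the 67 (4 at an unadjusted p under 0.05, against 8.12% of all genes, and 0 called by DESeq2). Without Tem1lacZ/lacZ traction replicate 1 edgeR also called 0 of them, against 0.376% of all genes. Between genotypes it called 0 in sham scars (5 at an unadjusted p under 0.05, against 11.7%, and 0 called by DESeq2). With traction it called 0 between genotypes (20 at an unadjusted p under 0.05, against 26.1%, and 13 called by DESeq2, against 12.2%), and 7 without Tem1WT/WT traction replicate 2 (7.32% of all genes). For the difference of the traction effects it called 0 (12 at an unadjusted p under 0.05, against 8.91%, and 0 called by DESeq2).

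The 5 genes tested with the pattern most like that of *Nos2* were found by the root mean square difference of centred log2 CPM over the 12 libraries, among 18846 genes. They were *Cxcl1*, a chemokine that attracts neutrophils (0.967), the gelatinase *Mmp9* (1.13), *Trem1*, a receptor of myeloid cells (1.17), the collagenase *Mmp13* (1.18) and *Cxcr1*, a chemokine receptor (1.21), where *Nos2* spanned 8.44 log2 units. *Cxcl1* was at 66.4, 37.6 and 15.8 CPM in Tem1WT/WT scars with traction and at 3.82 CPM or less in the 9 other libraries. *Mmp9* was at 757, 141 and 150 CPM in the former and at 7.33 to 27.0 CPM in the latter, and *Mmp13* at 1929, 154 and 138 CPM and at 11.2 to 45.1 CPM. Like *Nos2*, each had its lowest Tem1WT/WT traction library above all others, and they were chosen for that likeness.

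Promoters of 4 of the 7 genes were in the RefSeq table (GRCm38.p6, 250 bases before to 50 after the annotated start), and those of *Ass1* and *Gch1* are shown because they hold the matches closest to the start. Matches, in capitals, were searched on both strands for the TATA box (TATAAA), an octamer site (ATGCAAAT), the gamma-activated site (TTCNNNGAA), the AP-1 site (TGANTCA), the core of the hypoxia response element (ACGTG), an E-box (CACGTG) and the NF-kappaB consensus. *Ass1* held CACGTG from position -36 from the start, found in 7.15% of the 32851 promoters, which contains ACGTG (19.6%). *Gch1* held the NF-kappaB consensus from -10 (8.46%) and TATAAA on the opposite strand from -188 (13.6%). *Nos1* held the NF-kappaB consensus from -90, and *Odc1* none of these motifs. The matches are letters in the sequence and say nothing of binding.
Ass1, chr2:31470020-31470319, plus strand: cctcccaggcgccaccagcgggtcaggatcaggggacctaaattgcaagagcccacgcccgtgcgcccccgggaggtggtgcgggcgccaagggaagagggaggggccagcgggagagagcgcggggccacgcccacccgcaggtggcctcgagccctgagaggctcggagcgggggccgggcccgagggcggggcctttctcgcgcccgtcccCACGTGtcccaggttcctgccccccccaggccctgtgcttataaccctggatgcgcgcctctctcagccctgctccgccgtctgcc
Gch1, chr14:47189364-47189663, minus strand: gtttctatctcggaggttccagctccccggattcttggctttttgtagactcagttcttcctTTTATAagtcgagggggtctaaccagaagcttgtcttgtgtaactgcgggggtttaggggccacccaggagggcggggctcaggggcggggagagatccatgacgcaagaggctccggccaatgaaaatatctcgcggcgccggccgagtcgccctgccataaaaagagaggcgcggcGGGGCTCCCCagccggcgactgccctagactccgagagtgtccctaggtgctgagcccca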

How the data were processed

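RNA was extracted from mouse scars and sequenced from stranded poly(A) libraries as paired reads of 150 bases. Per the labels and the paper's methods, the authors trimmed reads with fastp 0.20.0, aligned them to GRCm38 with HISAT2 2.1.0 and counted them on genes with featureCounts 2.0.0. The deposited values are raw counts per gene and library, not normalized. The annotation, the strand setting and the treatment of reads with several alignments are not given in the sources used here, so genes that overlap or share sequence may share reads. Library totals, 41536788 to 64644293 counts, leave counting error small for these genes except *Nos1* and, outside Tem1WT/WT mice with traction, *Nos2*.

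The genes and all lists were chosen with earlier results of these data known. Counts of the 12 libraries were fitted in 1 model of 4 groups with edgeR 4.0.16 in R 4.3.3 (filterByExpr, TMM, robust quasi-likelihood test, 8 residual degrees of freedom). Benjamini-Hochberg adjustment ran over 18853 genes, two-sided, with a threshold of 0.05, so an adjusted p is that of edgeR unless another tool is named. The biological coefficient of variation was 34.2%. The authors compared groups with DESeq2, which was run here as an alternative (version 1.42.0), as was limma-voom (limma 3.58.1). Other alternatives were the filter, the scaling, a replicate block, the 6 libraries of a comparison alone and leaving out each library. Levels per kb use the exons of GENCODE vM21, Entrez identifiers and gene positions the RefSeq table of GRCm38. All 7 genes are named, and 2 further genes of the set are not reported here. In each pathway list up to 3 called genes with the largest change are named, or, where none was called, the 2 with the smallest p, and *Sms* was added after its values were seen. Cell type markers were summed as CPM. The test was run on simulated counts with large changes shared by all libraries of a group. That check does not cover smaller changes or a library that stands apart. No library was a copy of another. The labels do not name the animals, so p-values measure the spread between the 3 libraries of a group.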

Additional observations from a re-analysis of the deposited data

How the results depend on the processing

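With 3 libraries per group, the fold changes of most of the genes are imprecise, and calls near the threshold moved with the fit. Replicate 1 stood apart in the Tem1WT/WT traction group. Tem1lacZ/lacZ traction replicate 1 also differed from the others of its group, with keratinocyte markers at 43078 CPM against 15940 and 19077 CPM. Without it edgeR called 0.376% of all genes for traction in Tem1lacZ/lacZ mice, against 0.0% with all libraries. Of the 6 genes other than *Nos2*, 0 were called with traction in Tem1WT/WT mice. DESeq2 called 2 (*Nos1* and *Nos3*), and leaving out 1 library gave 0 to 2. Between genotypes with traction the count was 0, and on leaving out 1 library 0 to 1. In the other comparisons it was 0 under each alternative run. The cause of these differences was not tested. *Nos2* kept its direction in each comparison and alternative. Upper quartile scaling moved the median of all genes to -0.12 for traction in Tem1WT/WT mice and to 0.14 between genotypes with traction.

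The replicate numbers showed no clear pairing of the libraries, although correlations from 3 libraries per group cannot exclude one. Over 18 same-numbered pairs the deviations from the group means correlated with r from -0.32 to 0.25, 8 of them over 0.1. The median was 0.0895, against -0.0192 for the other pairs, and 2 libraries correlated best with their own number throughout. A fit with the replicate number as a block called 0 with traction in Tem1WT/WT mice as well, with *Nos3* at 1.24.

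Values that were not called changed sign as follows. With upper quartile scaling *Nos1* with traction in Tem1lacZ/lacZ mice was -0.024, and *Odc1* between genotypes in sham scars was 0.037. With limma-voom *Odc1* with traction in Tem1lacZ/lacZ mice was 0.023. On leaving out 1 library, traction in Tem1WT/WT mice ranged from -0.041 to 0.89 for *Slc7a2*, -0.26 to 0.73 for *Odc1* and -0.27 to 0.74 for *Gch1*, and in Tem1lacZ/lacZ mice from -0.16 to 0.30 for *Nos1* and -0.31 to 0.24 for *Odc1*. Between genotypes in sham scars the ranges were -0.38 to 0.51 for *Nos3* and -0.32 to 0.30 for *Odc1*. Between genotypes with traction they were -0.026 to 0.95 for *Nos1*, -0.75 to 0.19 for *Odc1* and -0.89 to 0.11 for *Gch1*. For the difference of the traction effects they were -1.48 to 0.26 for *Ass1*, -0.015 to 0.95 for *Slc7a2* and -0.80 to 0.24 for *Odc1*.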
